A study of Homo sapiens with 20 samples.

Results

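The SLC39A genes encode the ZIP family of metal transporters, which carry zinc and, for some members, manganese, iron or cadmium into the cytosol from outside the cell or from internal stores. They work against the SLC30A (ZnT) exporters and the metallothioneins, small proteins that bind zinc and whose genes are switched on when free zinc or another metal rises. In airway epithelium ZIP transporters set the supply of zinc, and nickel is a divalent metal that can compete with zinc and iron at transporters and metal-binding proteins. The 10 genes described here, SLC39A1, SLC39A4, SLC39A6, SLC39A7, SLC39A8, SLC39A9, SLC39A10, SLC39A11, SLC39A13 and SLC39A14, were taken by symbol from the count files, which list 25411 genes and 14 of the SLC39A family. All 10 had reads in all 20 libraries and passed the filter on low counts. The other 4 family members, SLC39A2, SLC39A3, SLC39A5 and SLC39A12, are given once for context.

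The cells were BEAS-2B, human bronchial epithelium immortalised with viral genes, grown with or without nickel chloride (NiCl2), and their total RNA was sequenced. Control_3D (4 libraries) and Ni_3D (2 libraries) are the unexposed and exposed cells of 3 days, and Ni_3D+14D (2 libraries) is named by its title as 3 days and a further 14 days. Control_6W and Ni_6W (2 libraries each) belong to the 6-week exposure, Ni_6W+2W (2 libraries) was washed and kept 2 weeks in nickel-free medium, and Ni_clone (6 libraries) holds 6 clones, each expanded without nickel from 1 colony of 6-week exposed cells. The labels give the concentration only for the cells that were cloned, as 100 mM, a unit printed here as labelled and not checked, and call the others various. The labels do not say whether libraries of a group came from separate cultures, so p-values measure the spread between these libraries, which may be technical, and each clone is 1 colony, so handling and cloning cannot be told apart from past exposure.

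Libraries held 8609243 to 88848786 reads (median 20274316), and no pair agreed within counting error (lowest chi-square per degree of freedom 9.33 over 190 pairs, 11.8 within a group). The simple-epithelial keratins KRT7 (51.3 to 1113 CPM), KRT8 (187 to 831 CPM) and KRT18 (134 to 386 CPM) were present throughout. The basal markers KRT5 (at most 4.02 CPM), KRT14 (at most 2.92 CPM) and TP63 (at most 0.213 CPM) were near 0. Ciliated and secretory markers (summed, at most 0.353 CPM) were near 0 too. Other epithelial markers were low in most libraries: EPCAM (median 2.36 CPM), CDH1 (median 0.474 CPM) and KRT19 (median 1.52 CPM, 0 reads in Control_6W). Mesenchymal markers were also present throughout: VIM (1532 to 4239 CPM), COL1A1 (529 to 6799 CPM), FN1 (103 to 3171 CPM) and CDH2 (114 to 248 CPM). SNAI2, of the same list, was at most 12.1 CPM. CPM stands for a gene's counts per megaread of the library after TMM scaling. Libraries stood apart in 4 ways that touch the zinc transporters. ZEB1, a repressor of epithelial genes, was at 0.612 to 1.76 CPM in Control_3D replicates 3 and 4 and both Control_6W libraries, and at 7.75 to 18.2 CPM in the other 16. Transcripts of oestrogen-responsive breast epithelium were seen in Control_3D replicate 1 (ESR1 at 3.51 CPM, TFF1 at 19.98 CPM) and Ni_3D replicate 1 (ESR1 at 10.7 CPM, TFF1 at 33.3 CPM), with ESR1 at 0 reads in the other 18. Control_6W replicate 2 had the zinc exporter gene SLC30A1 at 195 CPM against 12.5 to 31.7 CPM in all other libraries. The same library had the highest level of the metallothionein gene MT1X (72.8 CPM), and its MT2A was 753 CPM. Ni_6W replicate 1 had the lowest mean correlation with the other libraries (r = 0.885).

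The promoters of SLC39A8 and SLC39A10 are shown because those genes varied most between groups. Each line gives the 250 bases before the gene's first listed start, 5′ to 3′ on the gene's strand, from RefSeq on GRCh38.p14; the table held 8 of the 10 members. Capitals mark matches, on either strand, to TGCNCNC and to NCGTG. These patterns are wider than the cores of the metal response element, bound by the zinc sensor MTF1, and of the hypoxia response element. The first N of each pattern stands where the core has A or G, so some of the capitals are not cores.
SLC39A8 (chr4:102345483-102345732, minus strand): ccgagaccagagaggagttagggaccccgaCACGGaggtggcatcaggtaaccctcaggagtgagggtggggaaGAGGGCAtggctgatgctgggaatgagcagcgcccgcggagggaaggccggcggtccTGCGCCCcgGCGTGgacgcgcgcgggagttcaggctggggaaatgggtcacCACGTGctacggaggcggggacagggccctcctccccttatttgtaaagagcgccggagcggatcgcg
SLC39A10 (chr2:195656708-195656957, plus strand): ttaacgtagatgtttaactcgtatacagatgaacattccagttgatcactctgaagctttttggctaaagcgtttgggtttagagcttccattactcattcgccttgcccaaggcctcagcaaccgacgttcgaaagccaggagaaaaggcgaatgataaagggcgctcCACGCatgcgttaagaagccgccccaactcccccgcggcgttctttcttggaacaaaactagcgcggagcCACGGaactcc
The SLC39A8 stretch held 2 matches to TGCNCNC, whose first bases lie 176 and 119 bases before the start. It held 4 matches to NCGTG, at 220, 110, 68 and 67 bases before the start, of which the last 2 overlap within CACGTG. The SLC39A10 stretch held no match to TGCNCNC and 2 to NCGTG, at 81 and 11 bases before the start. In windows of 300 bases, which add 50 bases after the start, TGCNCNC was found in 4 of the 8 members (SLC39A6, SLC39A8, SLC39A11 and SLC39A13) and in 55.9% of 35116 promoters of the table. NCGTG was found in 7 of the 8, all but SLC39A13, and in 66.9% of the promoters. A match describes the letters only, and the counts and shares are those of the patterns, not of the response elements.

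Levels of different genes were compared as the authors' RPKM, reads scaled to gene length and library size. SLC39A7 (median 100 RPKM over 20 libraries), which releases zinc from the endoplasmic reticulum, and SLC39A1 (93.5 RPKM), a zinc importer of the plasma membrane, led the family and could not be ordered, with SLC39A7 above SLC39A1 in 12 of 20 libraries. Below them came SLC39A13 (45.2 RPKM), a transporter of the Golgi and vesicles needed in connective tissue, and SLC39A14 (34.5 RPKM), which takes up zinc, manganese and iron not bound to transferrin. SLC39A6 (26.8 RPKM), first known as the oestrogen-regulated gene LIV-1, and SLC39A4 (20.1 RPKM), the intestinal zinc importer lost in acrodermatitis enteropathica, were next. SLC39A9 (11.01 RPKM), a Golgi transporter also described as an androgen receptor of the membrane, stood above SLC39A11 (5.22 RPKM), the member of a separate ancient branch of the family. SLC39A10 (4.48 RPKM), a close relative of SLC39A6 at the plasma membrane, and SLC39A8 (2.24 RPKM), an importer of zinc, manganese and cadmium, were lowest. Of the 9 steps in this order, the ranges over 20 libraries did not overlap at SLC39A1 over SLC39A13 and at SLC39A9 over SLC39A11. The gene length implied by reads and RPKM was not constant for SLC39A9 (4156 to 5687 bases) and was short for SLC39A4 (756 to 816 bases), so their places are less certain.

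**Figure D1:**
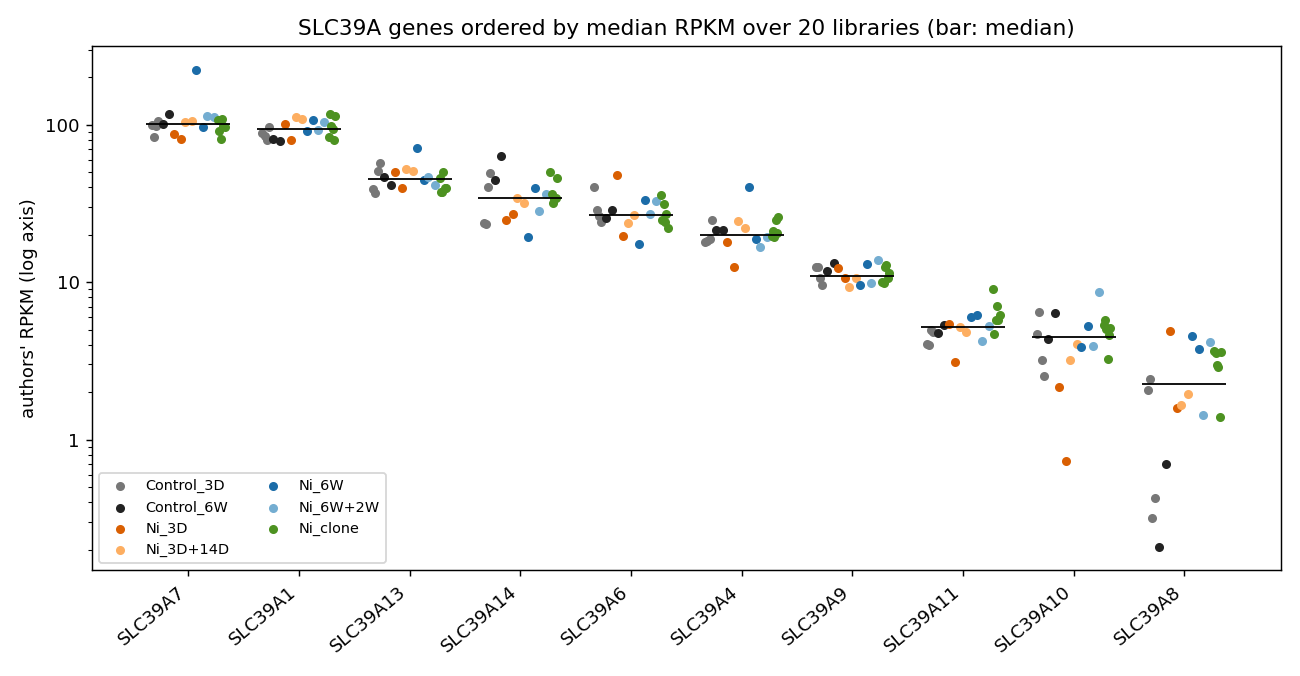
RPKM of each gene in the 20 libraries on a log axis, 1 point per library coloured by group, with a bar at the median, ordered from SLC39A7 (100) to SLC39A8 (2.24). The points of SLC39A1 lie above all those of SLC39A13, and those of SLC39A9 above all those of SLC39A11.

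Among the other 4 family members only SLC39A3, a plasma-membrane importer, was well expressed (55.0 to 103 CPM). Its median of 45.9 RPKM over 20 libraries lay beside that of SLC39A13 (45.2 RPKM) in the order above. SLC39A5 reached at most 0.482 CPM, SLC39A2 had at most 4 reads and in 2 libraries only, and SLC39A12 had 0 reads in each. By edgeR SLC39A3 could be tested in each comparison, and SLC39A5 in all but those with the clones. EdgeR and DESeq2 called neither in any comparison, with 0 at an unadjusted p under 0.05 by edgeR. On the genome build of the files (hg19), SLC39A8 lies on chromosome 4 from 103182821 to 103266655 (minus strand), SLC39A10 on chromosome 2 from 196521852 to 196602426 (plus strand) and SLC39A14 on chromosome 8 from 22225050 to 22291640 (plus strand). SLC39A1 contains the microRNA gene MIR6737 on the same strand (70 bases) and SLC39A7 overlaps RXRB on the opposite strand by 28 bases. Whether counting used strand is not given in the sources used here, so a small part of the SLC39A7 reads could belong to RXRB.

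Over the 10 comparisons the design gives, 1 member passed the threshold in 1 comparison: SLC39A8, higher in the nickel-derived clones than in Control_6W. The test was edgeR's quasi-likelihood F test, with p-values adjusted by the Benjamini-Hochberg method over all genes tested and called under 0.05. In Ni_3D against Control_3D 0 of 10 members were called, where 4.33% of all genes were, with 1 member at an unadjusted p under 0.05 (24.3% of all genes) and 1 called by DESeq2 (1891 genes in all). In Ni_3D+14D against Control_3D (background 0%) and against Ni_3D (background 0.255%) edgeR called 0, with 1 member at an unadjusted p under 0.05 in each (4.11% and 12.6% of all genes) and 0 called by DESeq2 (16 and 450 genes in all). In Ni_6W against Control_6W (background 2.47%) edgeR called 0, with 2 at an unadjusted p under 0.05 (26.6% of all genes) and 1 by DESeq2 (2078 genes in all). In Ni_6W+2W, edgeR called 0 against Control_6W (background 0%, 2 members and 13.1% of all genes at an unadjusted p under 0.05) and 0 against Ni_6W (background 0%, 1 member and 6.59% of all genes), and DESeq2 called 0 members in both (323 and 7 genes in all). In the clones the count was 1 of 10 against Control_6W by both tools (background 5.26% by edgeR, 2002 genes by DESeq2), with 2 at an unadjusted p under 0.05 (25.2% of all genes). Against Ni_6W+2W it was 0 of 10 by both (background 0.028% by edgeR, 65 genes by DESeq2), with 0 at an unadjusted p under 0.05 (6.61% of all genes). In Control_6W against Control_3D and in the Ni_6W response minus the Ni_3D response both tools called 0 members (background 0% by edgeR in both, 43 and 200 genes by DESeq2), with 1 and 0 members at an unadjusted p under 0.05 (8.31% and 10.9% of all genes). At 1 or 0 of 10 members, the counts say nothing about the family as a group against these backgrounds.

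**Figure D2:**
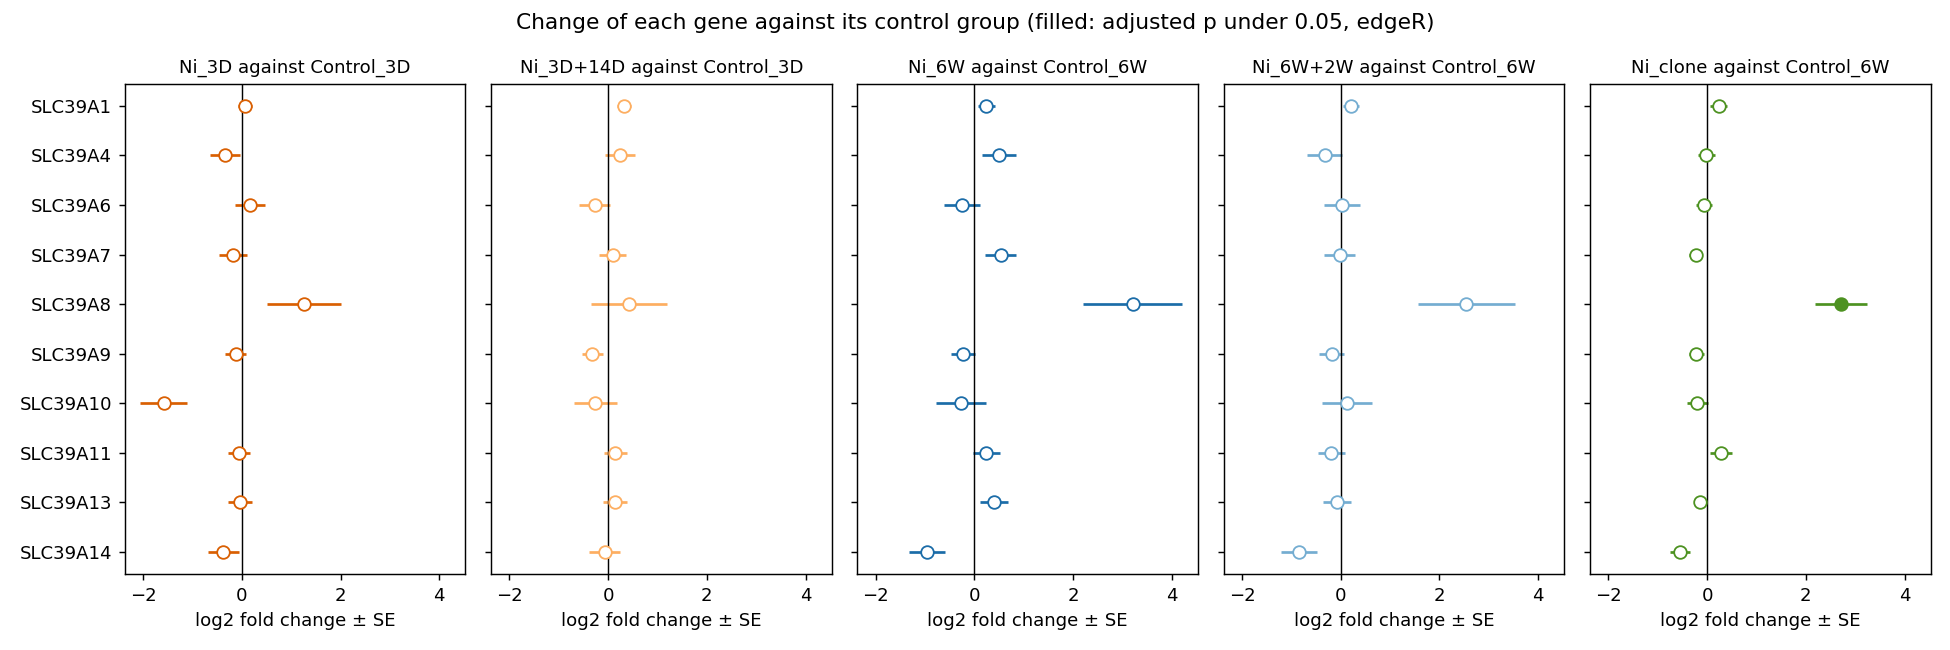
log2 fold change of each gene, with its standard error, in the comparisons of the nickel groups with their controls; filled points have an adjusted p under 0.05 by edgeR. SLC39A8 in the clones (2.72) is the filled point, and SLC39A10 in Ni_3D (-1.59) is the lowest value.

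SLC39A8 moved more between groups than any other member, with group means spanning 3.38 on the log2 scale. Its level was 7.59, 8.72, 1.12 and 1.53 CPM in Control_3D and 0.711 and 2.63 CPM in Control_6W. It was 16.9 and 6.05 CPM in Ni_3D, 5.96 and 7.03 CPM in Ni_3D+14D, 17.9 and 12.7 CPM in Ni_6W, and 5.29 and 14.1 CPM in Ni_6W+2W. The 6 clones ran from 5.11 to 13.4 CPM with a median of 11.4 CPM. All nickel-exposed or nickel-derived libraries lay above both Control_6W libraries, but Control_3D replicates 1 and 2 lay among the exposed ones. From lowest to highest, the group means were Control_6W, Control_3D, Ni_3D+14D, Ni_6W+2W, Ni_clone, Ni_3D and Ni_6W, and, at each step, the libraries of the neighbouring groups overlapped.

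In the clones SLC39A8 rose 6.59-fold over Control_6W (10.8 ± 3.02 against 1.67 ± 1.36 CPM, SD, n = 6 and 2; 2.72 on the log2 scale, SE 0.53, edgeR adjusted p = 0.0251), with 6 of 6 clones above both controls. The control side rests on 13 and 43 reads, and the adjusted p was 0.0692 with all 20 libraries in 1 fit. It was 0.0925 without Control_6W replicate 2 (log2 fold change 3.91; here and wherever 1 library is left in a group, it is assumed to vary like the other groups) and 0.0539 without clone 2 (2.66). Ni_6W was 9.26-fold above Control_6W (3.21 on the log2 scale, SE 1.0, edgeR adjusted p = 0.0831), which did not pass, while DESeq2 gave an adjusted p of 0.00494 for the same libraries. Ni_6W+2W was 5.83-fold above Control_6W (2.54, SE 0.98, adjusted p = 0.312 by edgeR). The clones and Ni_6W+2W, both out of nickel, differed in SLC39A8 by 0.15 on the log2 scale (SE 0.41, adjusted p = 0.978 by edgeR), which these 6 and 2 libraries could not tell from 0.

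The same 4 control libraries that were low in ZEB1 were the 4 lowest in SLC39A8, at 0.711 to 2.63 CPM against 5.11 to 17.9 CPM in the other 16. SLC40A1, which encodes the iron exporter ferroportin, followed the same split, at 0.428 to 1.18 CPM against 2.05 to 5.76 CPM. ZEB1 rose in the clones against Control_6W (3.71 on the log2 scale, SE 0.40, edgeR adjusted p = 0.00298), as did SLC40A1 (3.07, SE 0.44, adjusted p = 0.0115). Neither call held without Control_6W replicate 2, where the adjusted p was 0.0738 for ZEB1 and 0.119 for SLC40A1. Against Control_3D replicates 3 and 4 alone, the Ni_3D libraries were 3.15 higher in SLC39A8 on the log2 scale, against 0.49 higher with replicates 1 and 2 alone. These subsets follow the split in SLC39A8 itself, so both are given as values without a test. With all 4 controls the Ni_3D difference in SLC39A8 was 1.26 (SE 0.75, adjusted p = 0.323 by edgeR), and over all alternatives it ran from 0.32 to 3.15. Ni_3D replicate 1, a library with oestrogen-responsive transcripts, was at 16.9 CPM. Ni_3D replicate 2 was at 6.05 CPM, below Control_3D replicates 1 and 2 (7.59 and 8.72 CPM). The part of the split between controls in the SLC39A8 result was not tested.

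**Figure D3:**
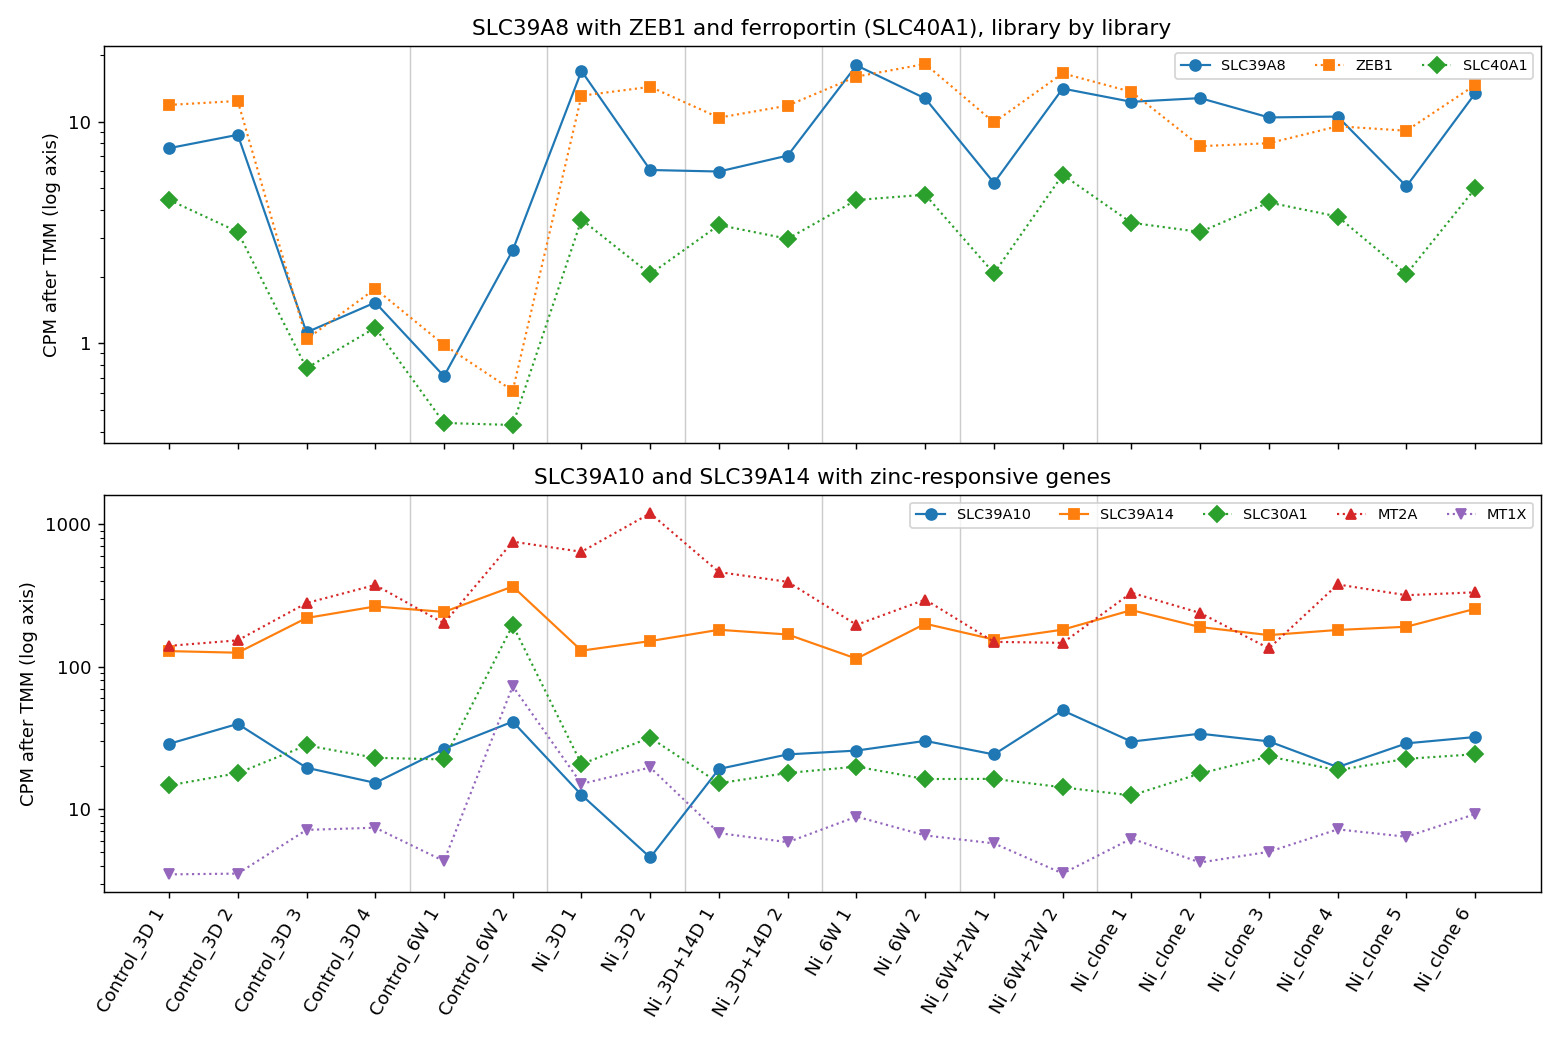
CPM library by library on a log axis: above, SLC39A8 with ZEB1 and SLC40A1; below, SLC39A10 and SLC39A14 with zinc-responsive genes. In the upper panel the lines of the 3 genes drop together in Control_3D replicates 3 and 4 and in both Control_6W libraries, and in the lower panel SLC30A1 peaks at 195 CPM in Control_6W replicate 2.

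SLC39A10 was lowest in cells kept in nickel for 3 days. Its level was 28.7, 39.6, 19.5 and 15.3 CPM in Control_3D and 12.6 and 4.58 CPM in Ni_3D, and the groups did not overlap. That is 3.0-fold lower (8.58 ± 5.66 against 25.8 ± 10.8 CPM, SD, n = 2 and 4; log2 fold change -1.59 with SE 0.47, edgeR adjusted p = 0.0699), which did not pass the threshold. DESeq2 gave an adjusted p of 0.00666 on the same libraries and edgeR 0.0244 with all 20 libraries in 1 fit, and without Ni_3D replicate 2 the log2 fold change was -1.05 (adjusted p = 0.32). Leaving out Control_3D replicate 1 and Ni_3D replicate 1 together, the pair with oestrogen-responsive transcripts, gave -2.45 (adjusted p = 0.0942).

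At later times SLC39A10 overlapped the matching controls, and 1 library, Ni_6W+2W replicate 2, lay above every control. In Ni_3D+14D it was 19.1 and 24.2 CPM, 2.51-fold above Ni_3D (log2 fold change 1.33 with SE 0.51, edgeR adjusted p = 0.319) and -0.26 on the log2 scale against Control_3D (SE 0.44, adjusted p = 0.991). In the 6-week series it was 26.5 and 41.1 CPM in Control_6W, 25.7 and 30.1 CPM in Ni_6W, and 24.2 and 49.2 CPM in Ni_6W+2W, all overlapping. The clones ran from 19.7 to 33.8 CPM with a median of 29.8 CPM. The Ni_6W response minus the Ni_3D response in SLC39A10 was 1.31 on the log2 scale (SE 0.68, adjusted p = 0.502 by edgeR), so a difference between the 2 exposures was not shown. By group mean SLC39A10 ranked Ni_3D, Ni_3D+14D, Control_3D, Ni_6W, Ni_clone, Control_6W and Ni_6W+2W, and only the first step, from Ni_3D to Ni_3D+14D, was free of overlap between neighbours.

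In the same Ni_3D libraries MT2A, a metallothionein, rose to 639 and 1190 CPM from 140 to 374 CPM in Control_3D (log2 fold change 1.97 with SE 0.47, edgeR adjusted p = 0.0409). This call was lost without any 1 of Control_3D replicates 1, 2 or 3 or either Ni_3D library (adjusted p from 0.0587 to 0.233). Over all alternatives the MT2A call held in 7 of 15. Of the metallothionein list (13 genes, MTF1 included), 5 were expressed enough to test, and all 5 were higher in Ni_3D (51.8% of all genes were). MT2A was the 1 called by edgeR (4.33% of all genes were), with 1 called by DESeq2 (1891 genes in all). At an unadjusted p under 0.05 there were 2 of 5 (24.3% of all genes). The median log2 fold change was 1.44, against 0.03 for all genes tested. MT1X was 15.0 and 19.6 CPM in Ni_3D and 3.48 to 7.40 CPM in Control_3D (1.72, SE 0.70, adjusted p = 0.155 by edgeR). High levels were not confined to nickel: in the unexposed Control_6W, MT2A was 201 CPM in replicate 1 and 753 CPM in replicate 2. MT1X was 4.32 and 72.8 CPM in the same libraries. In the other 9 comparisons edgeR called 0 of the 5, with 0 to 4 at an unadjusted p under 0.05 and 0 to 2 called by DESeq2. The 4 were reached in Ni_6W+2W against Control_6W (13.1% of all genes) and in Control_6W against Control_3D (8.31%). They were also reached in the Ni_6W response minus the Ni_3D response (10.9%), and each of these comparisons uses Control_6W. All 5 were lower in Ni_6W+2W than in Control_6W (median log2 fold change -2.38) and in the response difference (-2.93). All 5 were higher in Control_6W than in Control_3D (2.33). In the clones 3 of 5 were reached against Control_6W (25.2% of all genes), with all 5 lower (-1.45). Against Ni_6W+2W 3 of 5 were also reached (6.61%), with all 5 higher (0.68). DESeq2 called 2 in that response difference (200 genes in all) and 2 in the clones against Control_6W (2002 genes in all). Whether the levels of SLC39A10 and the metallothioneins are linked was not tested.

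SLC39A14 was highest in the 6-week controls, at 242 and 365 CPM. It was 128, 125, 219 and 264 CPM in Control_3D, 129 and 151 CPM in Ni_3D, 181 and 168 CPM in Ni_3D+14D, 114 and 199.9 CPM in Ni_6W, and 155 and 182 CPM in Ni_6W+2W. The clones ran from 166 to 255 CPM with a median of 189.9 CPM. Neither Ni_6W nor Ni_6W+2W overlapped Control_6W, while 2 clones (249 and 255 CPM) lay above the lower of the 2 controls. In Control_3D the split seen in SLC39A8 appeared with the opposite sign, with replicates 3 and 4 above replicates 1 and 2.

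SLC39A14 in Ni_6W was 1.94-fold below Control_6W (157 ± 61.0 against 303 ± 86.9 CPM, SD, n = 2 each; log2 fold change -0.96 with SE 0.36, edgeR adjusted p = 0.123). Ni_6W+2W was 1.80-fold below Control_6W (-0.85, SE 0.36, adjusted p = 0.349) and the clones 1.46-fold (-0.54, SE 0.20, adjusted p = 0.122), and none passed. Without Ni_6W replicate 2 the Ni_6W difference in SLC39A14 was -1.43, and without Control_6W replicate 2 it was -0.64, values that rest on 1 library in an arm. The first keeps only Ni_6W replicate 1, which stands apart and was the lowest of all libraries in SLC39A14 (114 CPM). In the controls alone, Control_6W was 0.70 above Control_3D on the log2 scale (SE 0.30, adjusted p = 0.591 by edgeR), and 1.25 above Control_3D replicates 1 and 2 alone. Those replicates were the lowest of their group in SLC39A14, so the second value is given without a test. By group mean SLC39A14 ranked Ni_3D, Ni_6W, Ni_6W+2W, Ni_3D+14D, Control_3D, Ni_clone and Control_6W, with overlap at each step. In Control_6W replicate 2, its highest library, SLC30A1 was also highest, and of the differences only that of Ni_6W is given here without that library. Over all alternatives the SLC39A14 difference against Control_6W ran from -1.43 to -0.61 in Ni_6W, from -1.11 to -0.53 in Ni_6W+2W and from -0.81 to -0.23 in the clones. That of Control_6W against Control_3D ran from 0.33 to 1.25.

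**Figure D4:**
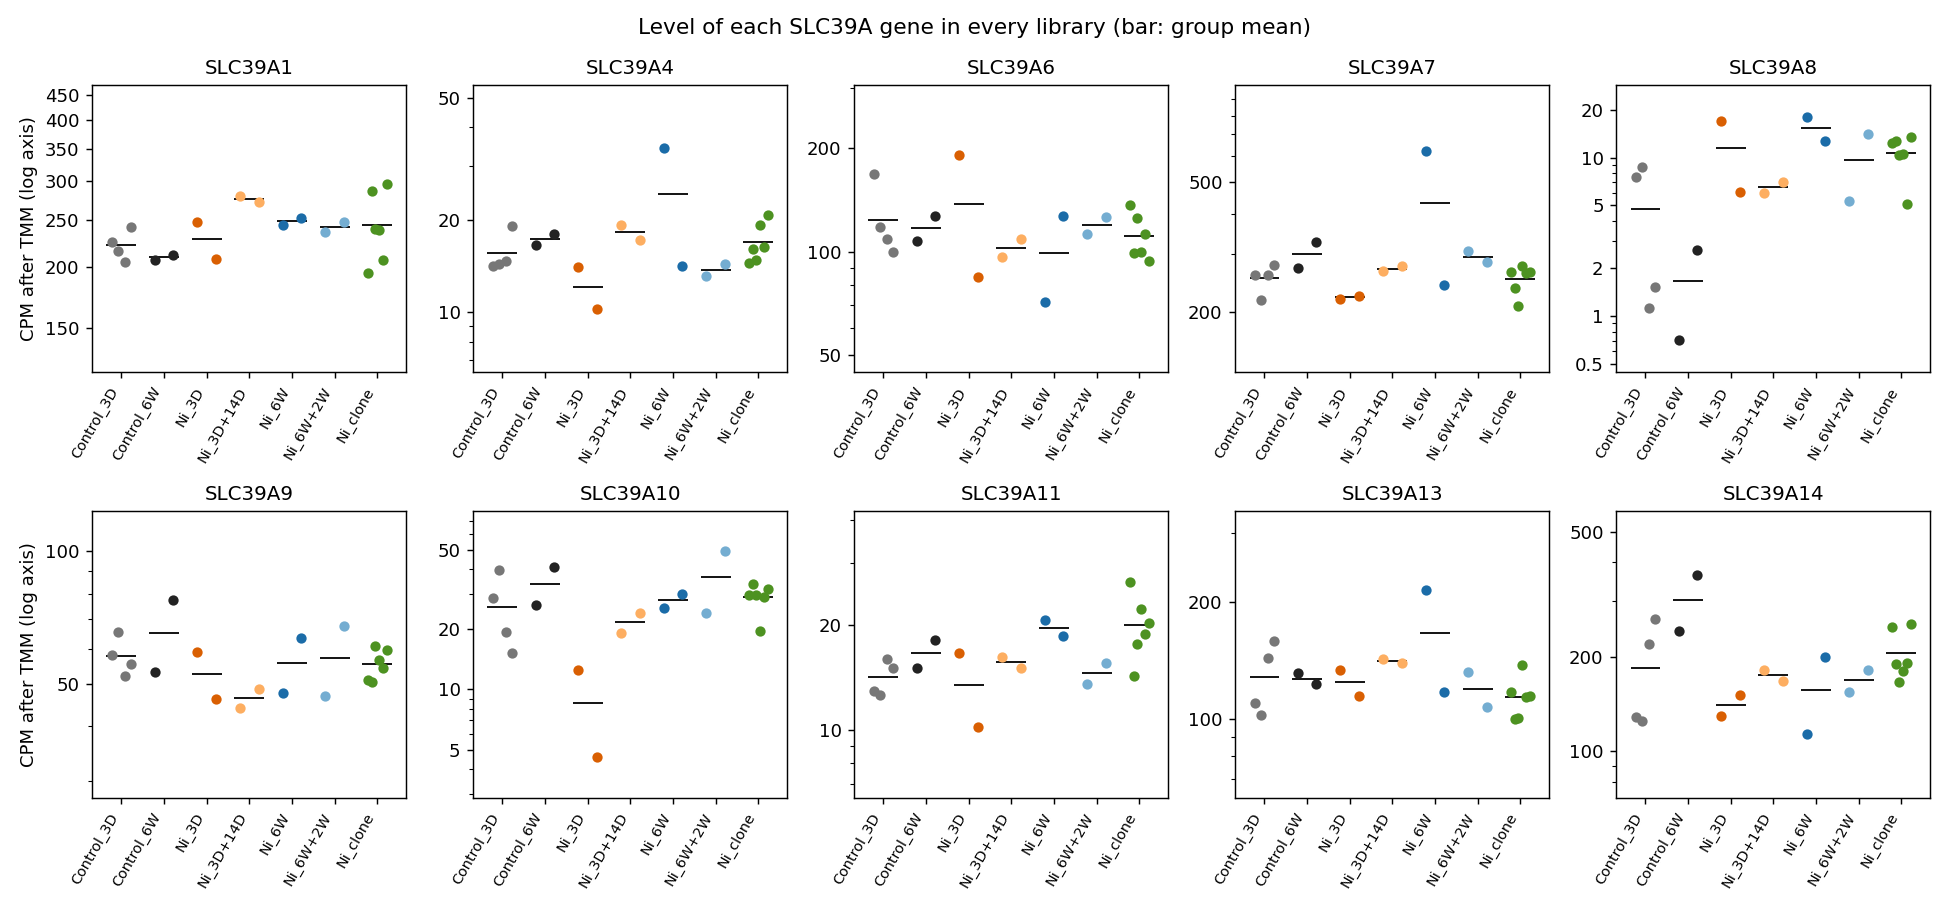
CPM after TMM scaling of each of the 10 genes in every library, 1 panel per gene, with points for libraries and a bar at the group mean. SLC39A8 is near 0 in both Control_6W libraries and in 2 of 4 Control_3D libraries, SLC39A10 is lowest in Ni_3D, and 1 Ni_6W library stands out in SLC39A7 (621 CPM).

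The other importers of the plasma membrane changed less. SLC39A1 was 204 to 242 CPM in Control_3D and 207 and 212 CPM in Control_6W, and its group means spanned 0.40 on the log2 scale, the narrowest range of the 10. In Ni_3D+14D it was 279.9 and 271 CPM, above all 4 Control_3D libraries (log2 fold change 0.32 with SE 0.14, edgeR adjusted p = 0.979). Both Ni_6W libraries (244 and 252 CPM) and both Ni_6W+2W libraries (236 and 247 CPM) of SLC39A1 also lay above both Control_6W libraries, by 0.24 (SE 0.16, adjusted p = 0.359) and 0.21 (SE 0.16, adjusted p = 0.618), which the test did not tell from the spread.

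SLC39A6 was 168, 118, 109 and 99.5 CPM in Control_3D and 191 and 84.6 CPM in Ni_3D. The Ni_3D libraries were thus its highest and its second-lowest of the 20. The 2 highest, Ni_3D replicate 1 and Control_3D replicate 1, are those with ESR1 and TFF1 reads, where the 6 oestrogen-responsive markers summed to 173 and 82.1 CPM against at most 17.4 CPM elsewhere. In bulk RNA a change in the share of a cell type and a change in RNA per cell cannot be told apart. With all libraries the SLC39A6 difference in Ni_3D was 0.17 (SE 0.31, adjusted p = 0.775 by edgeR), and without those 2 libraries it was -0.37 (adjusted p = 0.558). In the other groups SLC39A6 ran from 71.5 CPM (Ni_6W replicate 1) to 137 CPM (clone 1), and no comparison passed. The part of the oestrogen-responsive transcripts in the spread of SLC39A6 was not tested.

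SLC39A4, together with SLC39A7 and SLC39A13 of the internal membranes, was raised in 1 library, Ni_6W replicate 1. SLC39A7 was 621 CPM there and 242 CPM in Ni_6W replicate 2, against 209 to 328 CPM in the other 18 libraries. SLC39A4 was 34.3 CPM against 14.1 CPM in replicate 2 and 10.2 to 20.8 CPM elsewhere, and SLC39A13 was 214 CPM against 117 CPM in replicate 2 and 100.1 to 159 CPM elsewhere. SLC39A6 was at its lowest (71.5 CPM) in the same library.

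With both Ni_6W libraries in the fit, the differences against Control_6W did not pass: 0.53 for SLC39A7 (SE 0.32, adjusted p = 0.305 by edgeR), 0.50 for SLC39A4 (SE 0.35, adjusted p = 0.379) and 0.39 for SLC39A13 (SE 0.28, adjusted p = 0.389). With Ni_6W replicate 1 alone, the library that stands apart, the 3 differences were 1.03, 0.97 and 0.74, and with replicate 2 alone all 3 were negative, at -0.32, -0.30 and -0.12. An arm of 1 library has no spread of its own, so these are given as values without a test. The direction after 6 weeks in nickel turned with the library used. Across all 20 libraries the 3 genes varied together, with r of log2 CPM of 0.780 for SLC39A4 and SLC39A7, 0.767 for SLC39A7 and SLC39A13 and 0.689 for SLC39A4 and SLC39A13, a description over libraries that share this 1 outlying sample.

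No difference in SLC39A9 or SLC39A11 passed the threshold. SLC39A9 ran from 43.9 CPM (Ni_3D+14D replicate 1) to 77.3 CPM (Control_6W replicate 2), and both Ni_3D+14D libraries (43.9 and 48.6 CPM) lay below the 4 Control_3D libraries (52.0 to 65.5 CPM; log2 fold change -0.32 with SE 0.22, edgeR adjusted p = 0.979). SLC39A11 ran from 10.2 CPM (Ni_3D replicate 2) to 26.6 CPM (clone 1). In Ni_6W it was 20.6 and 18.6 CPM against 15.0 and 18.1 CPM in Control_6W (0.24, SE 0.27, adjusted p = 0.591 by edgeR). In the clones SLC39A11 was 14.3 to 26.6 CPM, 0.29 above Control_6W (SE 0.22, adjusted p = 0.455 by edgeR). The clones were 0.45 above Ni_6W+2W (SE 0.22, adjusted p = 0.777 by edgeR).

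The widest range over the 6 clones was that of SLC39A8, and it rests on clone 5. The highest clone (clone 6, 13.4 CPM) was 2.63-fold above the lowest (clone 5, 5.11 CPM), and the SD of log2 CPM over clones, 0.51, stood at the 93.2 percentile of the genes measured. Without clone 5 the other 5 clones spanned 1.28-fold in SLC39A8, and the SD of 0.16 stood at the 37.4 percentile, below that of all other members but SLC39A9. Over all 6 clones SLC39A9 differed least, with 1.21-fold between the extremes and an SD of 0.11 at the 13.0 percentile. SLC39A11 (1.86-fold, 14.3 to 26.6 CPM), SLC39A10 (1.72-fold) and SLC39A14 (1.53-fold) lay between. Each clone is 1 library, so a difference between 2 clones has no replicate check.

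**Figure D5:**
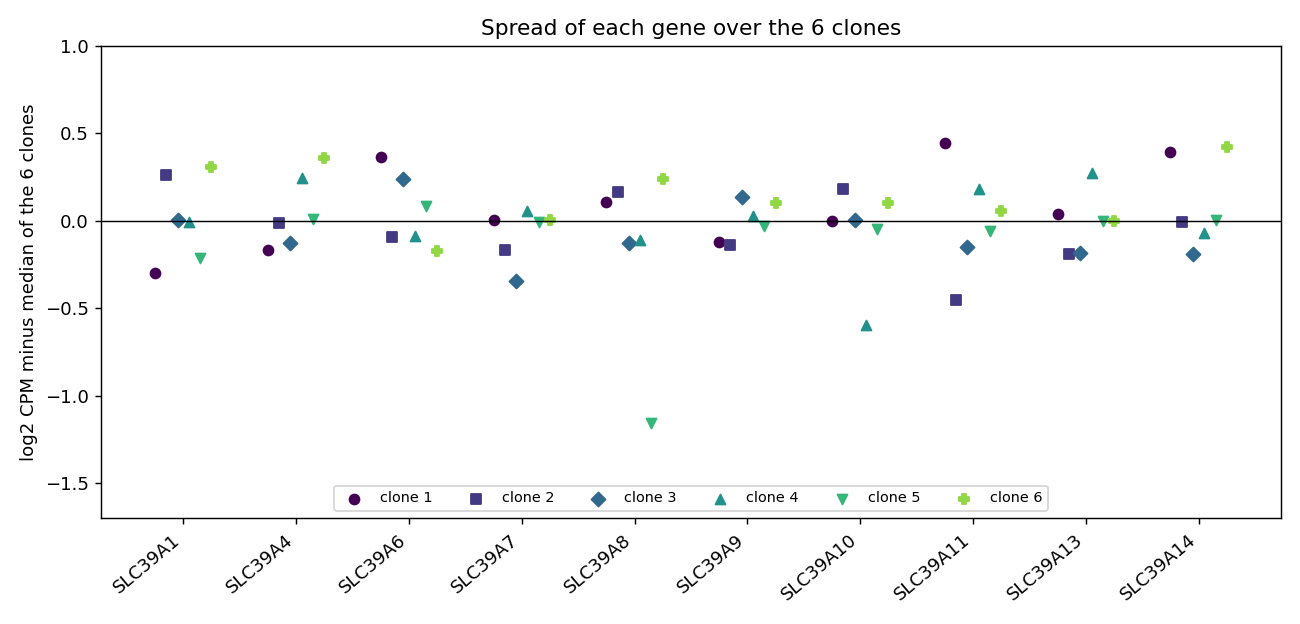
log2 CPM of each gene in the 6 clones minus the median of the clones, 1 point per clone. SLC39A8 in clone 5 lies lowest, at 5.11 CPM against a median of 11.4 CPM, and SLC39A9 is the most compact.

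The zinc exporters and other metal transporters were counted from lists for comparison. Of 7 SLC30A genes tested, edgeR called 1 in the clones against Control_6W (5.26% of all genes were). DESeq2 called 3 there (2002 genes in all), and 3 had an unadjusted p under 0.05 (25.2% of all genes). The edgeR call was a fall of SLC30A1 (-2.43 on the log2 scale, SE 0.55, edgeR adjusted p = 0.0400). That call rests on Control_6W replicate 2: the clones were 12.5 to 24.3 CPM, the controls 22.3 and 195 CPM, and without that replicate the SLC30A1 difference was -0.16 (adjusted p = 0.851). It was also lost without any 1 of the 6 clones, with adjusted p from 0.0545 to 0.0857. Over all alternatives the SLC30A1 call held in 4 of 12. In the other 9 comparisons edgeR called 0 of 7, with 0 to 4 at an unadjusted p under 0.05 and 0 to 2 called by DESeq2. Both highest counts were in Ni_6W against Control_6W, where 26.6% of all genes had an unadjusted p under 0.05 and DESeq2 called 2078 genes.

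Of 15 transporters of iron, copper, magnesium, calcium and manganese tested, TFRC, the transferrin receptor, rose in Ni_3D (1.31, SE 0.28, adjusted p = 0.0272 by edgeR), a call lost without Control_3D replicate 2 or 4 (0.0706 and 0.0615) or Ni_3D replicate 1 or 2 (0.0871 and 0.155). SLC40A1 rose in Ni_6W against Control_6W (3.38, SE 0.82, adjusted p = 0.0499 by edgeR), a call lost without Ni_6W replicate 1 (0.255) or Control_6W replicate 1 (0.122) or 2 (0.232), and in the clones. More alternatives than those named lost a call: TFRC was called in 7 of 15, and SLC40A1 in Ni_6W in 6 of 10. Of that list edgeR called no other gene in the 10 comparisons. Its shares of all genes were 4.33% in Ni_3D, 2.47% in Ni_6W and 5.26% in the clones against Control_6W. In those comparisons DESeq2 called 4, 3 and 2 of the list, against 1891, 2078 and 2002 genes in all. It called 1 in each of 3 other comparisons (450, 323 and 200 genes in all) and 0 in the rest. The median log2 fold change in Ni_3D was -0.09 for the 10 SLC39A genes and 0.03 for all genes tested, and in Ni_6W it was 0.24 and 0.03. In the clones against Control_6W the medians were -0.10 and 0.01.

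By the correlation of log2 CPM over the 20 libraries, among 10958 genes, the profiles most like SLC39A8 were those of LMF1 (r = 0.956), IGF1R (0.947) and PDPN (0.940). Those most like SLC39A10 were SCFD1 (0.943), PRPF4B (0.911) and RALGPS2 (0.900), and those most like SLC39A14 were RASSF3 (0.879), LYRM1 (0.869) and ATP6V1C1 (0.840). Within the family SLC39A8 and SLC39A14 had the lowest correlation of all pairs (r = -0.506). These values describe libraries that share groups, depth and the split between controls.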

How the data were processed

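The authors deposited, for each of the 20 libraries, read counts per RefSeq gene and, per the file headers, an RPKM value beside each count. The submitters' processing notes name STAR 2.4, DESeq, DESeq2 and the builds GRCh37 and hg19. For each tool's role, the counting method and strandedness, the sources used here give nothing. Libraries were grouped by title and joined by RefSeq identifier, since 28 symbols differ between libraries. Counts were tested in R 4.3.3 with edgeR 4.0.16 (TMM, filterByExpr with a minimum count of 10 and minimum total of 15, quasi-likelihood F test with robust fitting, Benjamini-Hochberg adjustment over all genes, called under 0.05). The 14 non-clone libraries shared 1 fit (14927 genes, biological coefficient of variation 29.7%), and clones with Control_6W or Ni_6W+2W alone (14172 and 14273 genes, 24.7% and 24.8%). SE is the log2 fold change over the root of F. Levels are CPM after TMM over all 20 libraries; correlations use log2 CPM with a prior count of 2.

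Named genes were all members, called genes of the fixed lists with SLC30A1, MT2A and MT1X, and for the 3 members with the widest group means the 3 most correlated genes. ZEB1, ESR1 and TFF1 were named after their values were seen. Alternatives were RLE size factors, DESeq2 1.42.0, no filter, the compared groups only, all 20 libraries, the replicate number as a block, and leaving out libraries; those for genes outside the family were added after seeing the data. Replicate numbers did not mark shared cultures in the labels. The fit was also run on simulated counts with known changes. Those counts held no outlying library and no split between controls, so that run says nothing about calls that turn on such libraries. The authors' 10 comparison tables were not used here. The members and lists were chosen with earlier results of these data known.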

Additional observations from a re-analysis of the deposited data

Results flagged for a closer look

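In 20 groups of 4 or 6 libraries (10 genes in Control_3D and in the clones), 3 had a library far from the others, where chance gives about 1 in 20. SLC39A4 was 19.0 CPM in Control_3D replicate 4, the shallowest library (8609243 reads, 162 of them in SLC39A4), against 14.1 to 14.6 CPM in the other 3. SLC39A8 was 5.11 CPM in clone 5, against 10.4 to 13.4 CPM in the other 5 clones. SLC39A10 was 19.7 CPM in clone 4, against 28.9 to 33.8 CPM in the other 5.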

How the results depend on the processing

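Of 1290 values of the 10 members under alternatives, 1273 stayed on the same side of the threshold, 3 lost the call, 14 gained it and 0 changed direction while called. Of 1264 values called under neither setting, 94 had the other sign. In Ni_3D against Control_3D, 1 member was called by DESeq2 and with all 20 libraries in 1 fit (SLC39A10 in both), and 1 without Control_3D replicates 1 and 2 (SLC39A8). The controls left in that fit were the lowest of the group in SLC39A8, so that call does not show a difference for the condition. In Ni_6W against Control_6W, SLC39A8 was the 1 member called by DESeq2 and with all 20 libraries. With all 20 libraries 0 members were called in the clones against Control_6W. Without Control_3D replicates 3 and 4, SLC39A14 was the 1 member called in Control_6W against Control_3D. The Control_3D libraries left were the lowest of the group in SLC39A14, so that call does not show a difference between the control groups. Leaving out 1 library at a time, members called ranged from 0 to 3 in Ni_6W against Control_6W (3 without Ni_6W replicate 2: SLC39A4, SLC39A7, SLC39A14), 0 to 2 in Ni_6W+2W against Ni_6W (SLC39A4 at -1.30 and SLC39A7 at -1.06 without Ni_6W replicate 2), 0 to 1 in the clones against Control_6W and 0 to 1 in the difference of responses (SLC39A7, 1.23, without Ni_6W replicate 2). In Ni_6W these fits leave 1 library, assumed to vary like the other groups; it stands apart, so those calls do not show a difference for the condition. The cause was not tested.

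With the replicate number as a block, 1 member was called in Ni_6W against Control_6W (SLC39A8, 3.28, adjusted p = 0.0375) and 1 in Control_6W against Control_3D (SLC39A14, 1.2, adjusted p = 0.0416), and no other member count changed. Same-numbered libraries correlated from -0.05 to 0.36 in their deviations, with 2 pairs per comparison at most, so the numbers are taken only as names. Where both groups hold 2 libraries, both pairs give the same value by construction. The highest value was that of Ni_3D replicate 1 with Control_3D replicate 1, the libraries with ESR1 reads. Whether those libraries share an origin was not tested. Clone numbers name the clone, and the block was not fitted there. Genes called over the whole table moved with the block from 647 to 92 in Ni_3D and from 368 to 761 in Ni_6W, and from 0 to 128 in Ni_6W+2W against Control_6W and from 0 to 281 in Control_6W against Control_3D. DESeq2 called 1891, 2078 and 2002 genes in Ni_3D, Ni_6W and the clones, where edgeR called 647, 368 and 746.

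Groups of 2 limit the precision, and SLC39A8 rests on 13 to 43 reads in the low controls.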
